A study of Mus musculus with 4 samples.

Results

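The 7 genes described here, Ccr7, Ccl22, Ccl17, Fscn1, Il4i1, Cacnb3 and Relb, belong to the programme with which dendritic cells mature and travel from tissue to the draining lymph node. They were chosen by symbol, and all 7 were among the 12584 genes of the deposited table. Their levels were read in the class that the study calls DC3, written here as CCR7+ DC, in both classes of conventional dendritic cell (cDC1 and cDC2), and in the monocyte and macrophage classes, separately in each of 4 libraries.

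CCR7 is the chemokine receptor that guides mature dendritic cells along gradients of CCL19 and CCL21 into lymphatic vessels and the T cell zone. CCL22 and CCL17 are the ligands of CCR4, a receptor of regulatory T cells, T helper 2 cells and skin-homing T cells, and mature dendritic cells are a main source of both. Fscn1 encodes fascin, which bundles actin into the protrusions of mature dendritic cells, Relb a subunit of the non-canonical NF-κB pathway, Il4i1 a secreted oxidase of aromatic amino acids, and Cacnb3 a regulatory subunit of voltage-gated calcium channels.

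Each library was a single-cell measurement of CD45+ live cells sorted from YUMM1.7-OVA melanomas in Rag2-/- mice, hosts that have no T or B cells of their own, and the tumours were of the RTT kind, made resistant to MAPK pathway inhibitors. OT-1 CD8+ T cells, which recognise the OVA antigen, were transferred on day 7 and the tumours were collected on day 10, 72 h later. CTRL tumours carried an mCherry control vector. IRF3/7 tumours carried vectors that forced Irf3 and Irf7 in the cancer cells from the SFFV promoter, as a bulk-sorted population. COX2i mice bore mCherry tumours and received celecoxib, an inhibitor of the prostaglandin-producing enzyme COX2, and COX2i + 5-AZA mice bore the same tumours and received celecoxib with 5-azacytidine, an inhibitor of DNA methyltransferases. For each group 3 tumours were pooled before the sort into 1 library, so no value below has a replicate. All intervals are 95% intervals of counting error alone, no difference between groups was tested, and the spread between animals was not measured.

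The libraries held between 6329 and 10032 cells and between 26356819 and 78722763 UMIs (counted transcript molecules), with medians per cell from 3168 UMIs in IRF3/7 to 7502 in COX2i. Of 34447 cells, 191 were CCR7+ DC, namely 10 in CTRL, 66 in IRF3/7, 28 in COX2i and 87 in COX2i + 5-AZA. They were 0.112%, 1.04%, 0.307% and 0.867% of their libraries. The number of cDC2 was 645, 390, 666 and 261 in the same order, that of cDC1 was 16, 38, 79 and 60, that of monocytes 139, 4596, 558 and 4684, and that of macrophages 7475, 439, 6820 and 4117. The 4 libraries shared no full cell barcode, although 4830 of 29259 droplet barcodes occurred in 2 or more libraries. Levels are the UMIs of a gene divided by all UMIs of the class, scaled to counts per 1000000 (CPM), and a difference is the log2 ratio of 2 such levels. The assay counts ligated probe pairs whose number differs between genes, so levels are compared between libraries and classes and not between genes.

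The CCR7+ DC class was described with 9 of its marker genes that are not members (Cd83, Traf1, Samsn1, Syngr2, Tmem123, Etv3, Stat4, Socs2 and Ramp3). Their summed level was 11689.8, 14259, 13308 and 11471 CPM in CCR7+ DC of CTRL, IRF3/7, COX2i and COX2i + 5-AZA, and 1639, 2249, 1904 and 2228 CPM in cDC2. The 6 T cell markers summed to at most 27.2 CPM in CCR7+ DC, the 6 NK cell markers to at most 48.1 CPM, and the 4 markers of plasmacytoid dendritic cells to between 68.2 and 102 CPM. Siglech, Ccr9 and Ly6d of the last list had no UMI there in any library, so this sum came from its remaining gene. Ccr7, Relb, Cacnb3 and Il4i1 are among the top marker genes that the study lists for this class, which was clustered on the same cells, so that they are high in it is not a result. The same limit holds for the 9 other marker genes, whose sums are no independent check of the name.

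Ccl22 and Ccl17 lie side by side on chromosome 8. In GRCm38 (GENCODE vM21) Ccl22 spans chr8:94745590-94751699 and Ccl17 chr8:94810453-94812036, both on the plus strand. The 58.8 kb between them hold 1 protein-coding gene, Cx3cl1 (chr8:94772009-94782427), which encodes the membrane-bound chemokine fractalkine. Because these neighbours gave the clearest differences between libraries, the bases before the GENCODE start of each gene are shown, from RefSeq promoters of GRCm38.p6 (plus strand, 5′ to 3′, lower case). Each promoter ran from 250 bases before the RefSeq start to 50 bases after it. Capitals mark matches to the NF-κB pattern GGGNNNNNCC in Ccl22 and to the STAT6 pattern TTCNNNNGAA in Ccl17, each searched on both strands. The Ccl22 stretch is chr8:94745434-94745589 and the Ccl17 stretch is chr8:94810203-94810452.
Ccl22: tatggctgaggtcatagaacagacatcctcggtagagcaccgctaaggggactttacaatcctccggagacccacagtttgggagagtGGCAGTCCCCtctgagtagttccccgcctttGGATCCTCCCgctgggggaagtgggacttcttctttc
Ccl17: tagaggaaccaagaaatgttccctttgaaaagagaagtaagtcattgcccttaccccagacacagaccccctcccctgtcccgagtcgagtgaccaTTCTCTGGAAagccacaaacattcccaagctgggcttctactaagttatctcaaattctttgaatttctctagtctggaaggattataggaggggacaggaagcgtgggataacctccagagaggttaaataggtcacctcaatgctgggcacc
The Ccl22 promoter held 2 NF-κB matches, which began 162 and 131 bases before the RefSeq start, and no STAT6 match. For Ccl22 the RefSeq start lies inside the GENCODE gene, so the printed stretch, which ends before the GENCODE gene, does not reach it. The Ccl17 promoter held 1 STAT6 match, which began 154 bases before the start, and no NF-κB match. Neither held the interferon response pattern GAAANNGAAA. Over all 32851 promoters of the same length, 50.8% held the NF-κB pattern, 6.95% the STAT6 pattern and 3.44% the interferon response pattern, so the NF-κB match in particular is common. A match is a description of the letters, and no factor binding was measured. Promoter sequences were found for 5 of the 7 genes. Ccr7 lies at chr11:99144196-99155077 on the minus strand, Fscn1 at chr5:142960343-142973185 on the plus strand, Il4i1 at chr7:44816387-44840809 on the plus strand, Cacnb3 at chr15:98630840-98644529 on the plus strand and Relb at chr7:19606217-19629438 on the minus strand.

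CCR7+ DC of all 4 libraries carried Ccr7, Cacnb3 and Relb at levels within 2-fold of each other, while the chemokines Ccl22 and Ccl17 stood far lower in IRF3/7 than elsewhere. Ccr7 was at 4321 CPM in CTRL (3729 to 4981), 4838 in IRF3/7 (4544 to 5146), 6382 in COX2i (5919.7 to 6871) and 5214 in COX2i + 5-AZA (4994 to 5442). COX2i was the highest of the 4 for Ccr7, and the intervals of CTRL and IRF3/7 overlapped. A Ccr7 UMI was found in all 87 CCR7+ DC in COX2i + 5-AZA, against 9 of 10 in CTRL, 87.9% in IRF3/7 and 92.9% in COX2i. These shares move with depth: with each cell thinned to 1000 UMIs they were 70.0% in CTRL, 84.8% in IRF3/7, 89.3% in COX2i and 96.6% in COX2i + 5-AZA.

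Ccl22 was at 2297 CPM in CCR7+ DC of CTRL (1871 to 2791), 505 in IRF3/7 (413 to 611), 2091 in COX2i (1830.2 to 2379) and 3859 in COX2i + 5-AZA (3669.5 to 4056). Only IRF3/7 stood under 1000 CPM, and COX2i + 5-AZA was above the other libraries with no overlap of intervals. The IRF3/7 level was 4.55-fold lower than CTRL (log2 ratio -2.19, -2.59 to -1.78) and 7.64-fold lower than COX2i + 5-AZA (log2 ratio -2.93, -3.23 to -2.65). The second of these comparisons was added after the data were seen, because CTRL had 10 CCR7+ DC. A Ccl22 UMI was found in 48.5% of CCR7+ DC in IRF3/7, against 9 of 10 cells in CTRL, 78.6% in COX2i and 90.8% in COX2i + 5-AZA, and after thinning in 37.9%, against 5 of 10 cells, 64.3% and 73.6%. With thinned cells the Ccl22 ratio of IRF3/7 to CTRL was -1.20 (-2.08 to -0.25), and that to COX2i + 5-AZA was -2.62 (-3.11 to -2.16).

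Ccl17 was nearly absent from IRF3/7. Its level in CCR7+ DC was 1365 CPM in CTRL (1041 to 1756), 9.62 in IRF3/7 (1.16 to 34.7), 1267 in COX2i (1066 to 1496) and 1922 in COX2i + 5-AZA (1789 to 2063). The IRF3/7 value rests on 2 UMIs in 1 of 66 cells. The log2 ratio of IRF3/7 to CTRL was -7.15 (-10.23 to -5.23) and that to COX2i + 5-AZA was -7.64 (-10.69 to -5.78). Ccl17 is carried by few cells: 1 cell held 53 of the 60 UMIs in CTRL and 91 of 140 in COX2i, against 86 of 773 in COX2i + 5-AZA. Without the cell with most Ccl17 UMIs in each library, IRF3/7 had no UMI left and its log2 ratio was at most -3.63 against CTRL and at most -6.88 against COX2i + 5-AZA, while the ratio of COX2i + 5-AZA to COX2i moved from 0.60 (0.34 to 0.87) to 1.92 (1.50 to 2.37) and that of COX2i + 5-AZA to CTRL from 0.49 to 3.25. The levels of CTRL and COX2i are therefore largely those of single cells. A Ccl17 UMI was found in 30.0% of CCR7+ DC in CTRL, 1.52% in IRF3/7, 42.9% in COX2i and 57.5% in COX2i + 5-AZA.

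Cx3cl1, the gene between the pair, was at 91.0 CPM in CCR7+ DC of CTRL, 19.2 in IRF3/7, 81.5 in COX2i and 186 in COX2i + 5-AZA. All of these are low counts (4, 4, 9 and 75 UMIs), and the order of the libraries was that of Ccl22. The log2 ratio of IRF3/7 to COX2i + 5-AZA was -3.28 (-5.19 to -1.86), while that to CTRL was -2.24 with an interval that reached 0 (-4.67 to 0.18).

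**Figure D1:**
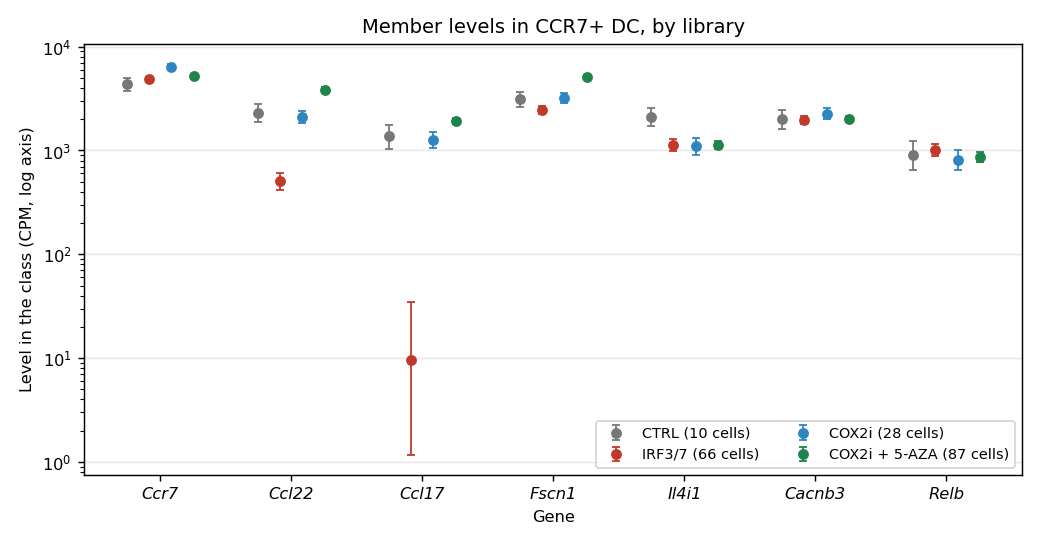
Level of each of the 7 genes in CCR7+ DC, in CPM on a log axis, with 1 point per library and bars for the exact Poisson 95% interval (counting error only). The IRF3/7 points of Ccl22 (505 CPM) and Ccl17 (9.62 CPM) stand under the other libraries, while for Cacnb3 and Relb the intervals of all 4 libraries overlap.

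Fscn1 was at 3116 CPM in CCR7+ DC of CTRL (2616 to 3683), 2462 in IRF3/7 (2254 to 2685), 3205 in COX2i (2879 to 3557) and 5048 in COX2i + 5-AZA (4831 to 5272). The last was the highest, 1.62-fold above CTRL and 1.58-fold above COX2i, and it was 2.05-fold above IRF3/7 (log2 ratio of IRF3/7 to COX2i + 5-AZA -1.04, -1.18 to -0.90). That ratio was -0.65 with thinned cells, under 2-fold, and -2.39 (-2.91 to -1.91) among cells with over 2000 detected genes. Il4i1 was at 2115 CPM in CTRL (1707 to 2591), 1135 in IRF3/7 (995 to 1289), 1095 in COX2i (909 to 1309) and 1129 in COX2i + 5-AZA (1027 to 1238). Here CTRL stood apart with 93 UMIs from 10 cells, between 1.86-fold and 1.93-fold above each of the others, whose intervals overlapped. Among cells with over 2000 detected genes the Il4i1 ratio of IRF3/7 to COX2i + 5-AZA was -1.25 (-2.03 to -0.56) in place of 0.01.

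Cacnb3 was the most even of the genes in CCR7+ DC, at 2001 CPM in CTRL, 1967 in IRF3/7, 2263 in COX2i and 1999 in COX2i + 5-AZA. Relb was at 909.7, 1019.5, 815 and 870.3 CPM in the same order. For both genes the 4 intervals overlapped, and the log2 ratios to CTRL lay between -0.03 and 0.18 for Cacnb3 and between -0.16 and 0.16 for Relb. The counts of CTRL behind them were 88 and 40 UMIs, and the interval of the largest of these ratios reached from -0.18 to 0.54 for Cacnb3 and from -0.33 to 0.69 for Relb.

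Counted over the genes, 2 of 7 were at least 2-fold lower in CCR7+ DC of IRF3/7 than of CTRL (Ccl22 and Ccl17) and none was at least 2-fold higher, where of all genes with at least 20 UMIs in the pair of libraries 8.66% were lower and 17.1% higher by that measure. Against COX2i + 5-AZA, 3 of 7 were at least 2-fold lower in IRF3/7 (Ccl22, Ccl17 and Fscn1) and none higher, where 12.0% of all genes were lower and 5.98% higher. None of the 7 differed by 2-fold between COX2i and CTRL (all genes: 9.44% higher, 5.55% lower), between COX2i + 5-AZA and CTRL (16.3% higher, 6.94% lower) or between COX2i + 5-AZA and COX2i (11.0% higher, 3.47% lower). The median log2 ratio of the 7 genes in these 5 comparisons was -0.34, -0.11, -0.11, 0.27 and 0.10, beside 0.13, -0.10, 0.05, 0.08 and 0.07 over all genes.

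Several of these values depended on which cells were kept. Cells with over 2000 detected genes numbered 3 of 10 CCR7+ DC in CTRL, 7 of 66 in IRF3/7, 8 of 28 in COX2i and 38 of 87 in COX2i + 5-AZA. Among them the log2 ratio of Ccr7 to CTRL was 2.16 in IRF3/7, 3.16 in COX2i and 2.37 in COX2i + 5-AZA, where all cells gave less than 2-fold, and that of Cacnb3 was 0.95, 1.05 and 1.39. Ccl22 and Ccl17 in COX2i were then below CTRL, at -1.79 and -2.93, and Fscn1 in COX2i + 5-AZA was above it, at 1.92. Ratios to CTRL in this class thus changed with 3 cells in place of 10. The Ccl22 ratio of IRF3/7 was -2.83 to CTRL and -2.89 to COX2i + 5-AZA, and that of Ccl17, with no UMI left in IRF3/7, was at most -5.35 and at most -4.73. Between COX2i + 5-AZA and COX2i, Ccl22 (1.85), Ccl17 (2.31) and Fscn1 (1.08) then passed 2-fold.

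Markers of other cells moved with the IRF3/7 library. In its CCR7+ DC the 6 monocyte markers in the table summed to 4304 CPM and none was at 0, against 387 in CTRL (Chil3, Vcan and Hp at 0), 597 in COX2i (Chil3 and Hp at 0) and 793 in COX2i + 5-AZA. Mgl2, a lectin of cDC2 and macrophages, was at 523 CPM in CTRL, 4.81 in IRF3/7, 190.1 in COX2i and 632 in COX2i + 5-AZA. The summed level of all 8 cDC2 markers was between 1403 and 2452 CPM, with IRF3/7 (1409) inside the range, and that of the 8 macrophage markers was lowest in IRF3/7, at 509.8 CPM, and highest in COX2i + 5-AZA, at 2516 CPM. The part of these cells, and of the lower depth of IRF3/7, in the Ccl22 and Ccl17 levels was not tested.

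Most CCR7+ DC carried several of the 7 genes at once. At least 4 of them were found in 9 of 10 CCR7+ DC in CTRL (exact interval 55.5% to 99.7%), 53 of 66 in IRF3/7 (80.3%, 68.7% to 89.1%), 25 of 28 in COX2i (89.3%, 71.8% to 97.7%) and 82 of 87 in COX2i + 5-AZA (94.3%, 87.1% to 98.1%). All 7 were found in 2, 1, 9 and 33 of these cells. With cells thinned to 1000 UMIs the share with at least 4 was 60.0% (26.2% to 87.8%), 53.0% (40.3% to 65.4%), 60.7% (40.6% to 78.5%) and 79.3% (69.3% to 87.3%). The intervals of CTRL, IRF3/7 and COX2i overlapped, and that of COX2i + 5-AZA lay above that of IRF3/7 alone. In contrast, of cDC2 none in CTRL or IRF3/7, 3 of 666 in COX2i and 2 of 261 in COX2i + 5-AZA had 4 or more, and after thinning none in any library had. Ccr7, Relb, Cacnb3 and Il4i1 are top marker genes of CCR7+ DC, a class clustered on these cells. That CCR7+ DC stand out in such counts is therefore not a result. Among all cells of a library with at least 4 of the genes, CCR7+ DC were 9 of 18 in CTRL, 53 of 54 in IRF3/7, 25 of 44 in COX2i and 82 of 100 in COX2i + 5-AZA. Cells of the class Myofibrobl made up 9, 1, 10 and 7 of these, a class with median UMIs per cell between 11036 and 20862.5.

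**Figure D2:**
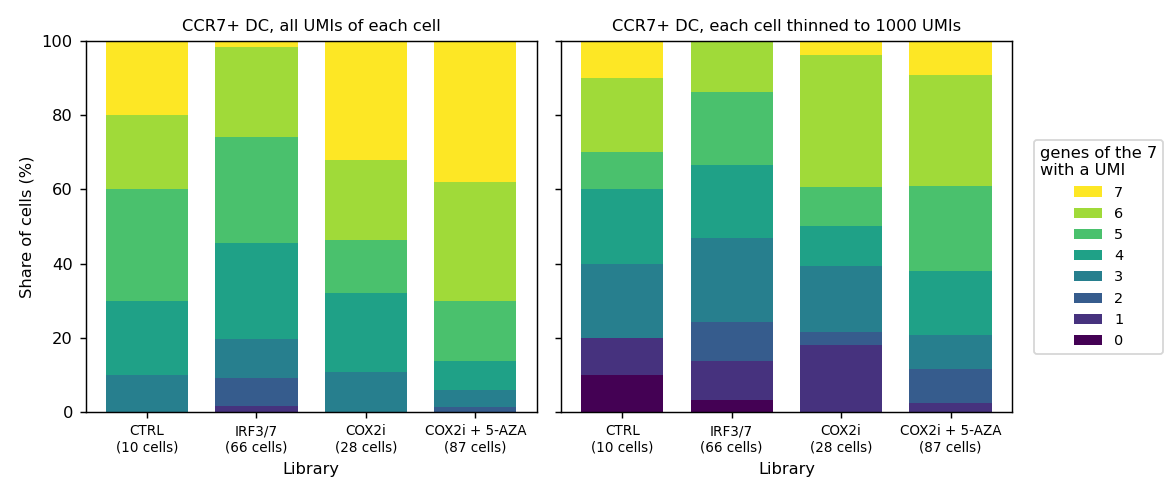
Share of CCR7+ DC (percent) by how many of the 7 genes had a UMI in the cell, in each library, from all UMIs (left) and with each cell thinned to 1000 UMIs (right). All 7 genes were found in 33 of 87 cells of COX2i + 5-AZA and in 1 of 66 of IRF3/7 before thinning.

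The transcripts of the 7 genes lay in different sets of cells. CCR7+ DC held 60.5% of all Ccr7 UMIs of CTRL, 82.4% of IRF3/7, 53.8% of COX2i and 79.4% of COX2i + 5-AZA, and cDC2 held 24.8%, 6.06%, 34.5% and 6.55%. Ccl22 was likewise placed, with 78.9%, 92.1%, 55.8% and 83.6% of its UMIs in CCR7+ DC, and Il4i1 with 46.7%, 80.5%, 57.9% and 79.0%. Ccl17 was placed differently: cDC2 held 55.3% of its UMIs in CTRL, 62.0% in COX2i, where 710 of the 1410 UMIs came from 1 cell, and 39.0% in COX2i + 5-AZA, against 19.2%, 6.15% and 35.8% in CCR7+ DC and 22.7%, 26.5% and 17.1% in macrophages. The whole IRF3/7 library held 5 Ccl17 UMIs, 3 in cDC2 and 2 in CCR7+ DC, where CTRL held 313, COX2i 2276 and COX2i + 5-AZA 2158.

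Fscn1 and Cacnb3 were shared with a class outside the myeloid lineage. Myofibrobl cells held 82.6% of Fscn1 UMIs in CTRL, 60.6% in IRF3/7, 81.6% in COX2i and 30.8% in COX2i + 5-AZA, and for Cacnb3 63.8%, 31.2%, 65.0% and 18.6%. Within that class Fscn1 was at 307, 191, 365 and 363 CPM, under its level in CCR7+ DC in every library. Relb was spread over the myeloid cells: macrophages held 68.6%, 7.25%, 61.7% and 39.4% of its UMIs and monocytes 1.00%, 53.5%, 3.87% and 37.5%, following the numbers of those cells. Ccr7 outside the myeloid cells was highest in the few cells of class T_CD8, at 901 CPM in 8 cells of IRF3/7 and 888 CPM in 7 cells of COX2i + 5-AZA, and it was at 61.6, 9.95, 54.9 and 31.6 CPM in NK cells.

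**Figure D3:**
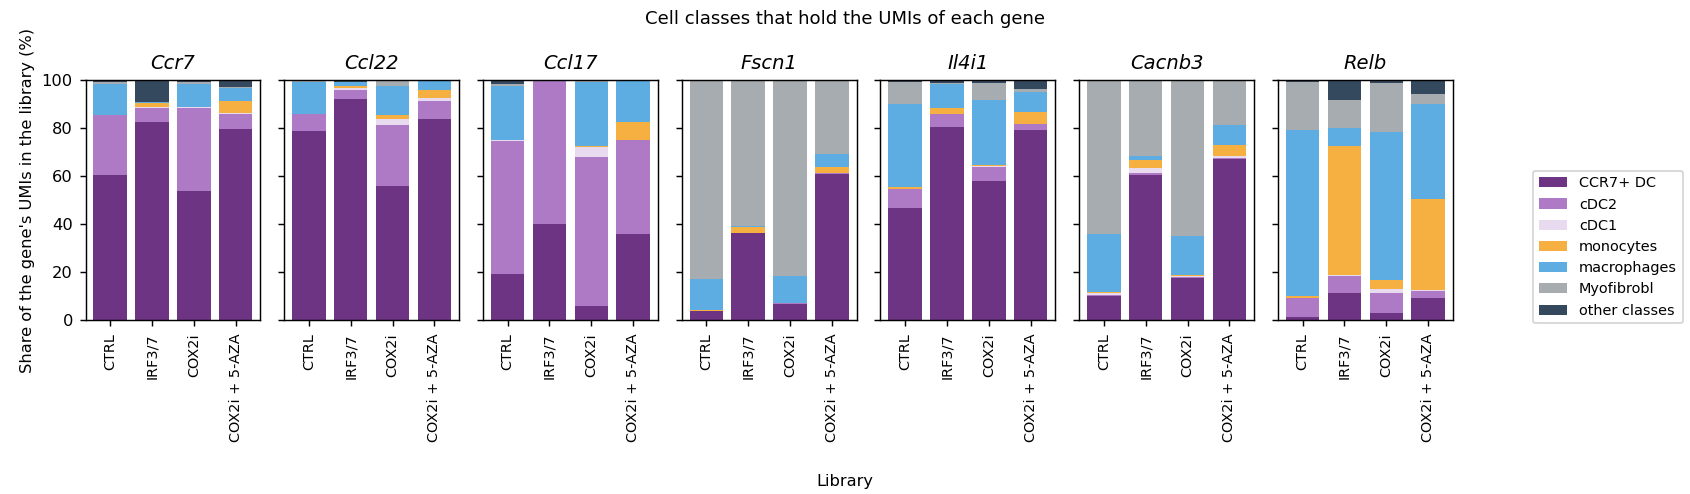
Share of the UMIs of each gene in a library (percent, each bar adds up to 100) that each cell class holds, with 1 panel per gene and 1 bar per library. CCR7+ DC hold most Ccr7 and Ccl22 UMIs in every library, cDC2 hold 55.3% of Ccl17 UMIs in CTRL, 62.0% in COX2i and 39.0% in COX2i + 5-AZA, and Fscn1 lies mainly in Myofibrobl cells in CTRL, IRF3/7 and COX2i; the IRF3/7 bar of Ccl17 rests on 5 UMIs.

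The cDC2 class held at least 261 cells in each library. Ccr7, Ccl22 and Ccl17 were each at least 2-fold higher in cDC2 of COX2i and of COX2i + 5-AZA than of CTRL, while in IRF3/7 Ccr7 was 2.02-fold higher and Ccl17 27.1-fold lower. Ccr7 was at 28.0 CPM in CTRL (22.1 to 35.0), 56.4 in IRF3/7 (44.3 to 70.9), 135 in COX2i (123 to 148) and 132 in COX2i + 5-AZA (113 to 153). Both celecoxib libraries stood above IRF3/7, and IRF3/7 above CTRL, with no overlap of intervals other than between the celecoxib libraries. The log2 ratio to CTRL was 1.01 in IRF3/7 (0.53 to 1.49), 2.27 in COX2i (1.92 to 2.63) and 2.24 in COX2i + 5-AZA (1.84 to 2.64), and that of COX2i + 5-AZA to COX2i was -0.03 (-0.29 to 0.22). The value of IRF3/7 lay at the 2-fold mark, and it was under it with cells thinned to 1000 UMIs (0.87) and without the cell with most Ccr7 UMIs in each library (0.86). A Ccr7 UMI was found in 3.72% of cDC2 in CTRL, 5.13% in IRF3/7, 7.96% in COX2i and 11.1% in COX2i + 5-AZA, and after thinning in 1.55%, 2.31%, 4.50% and 5.00%. For comparison, the share in monocytes was between 0% and 0.747% for Ccr7, between 0% and 0.896% for Ccl22 and between 0% and 0.918% for Ccl17. Free RNA was not measured, and some monocytes held many UMIs, so these shares are no more than an upper guide to the background.

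Ccl22 was at 3.23 CPM in cDC2 of CTRL (1.48 to 6.13), 3.05 in IRF3/7 (0.831 to 7.81), 31.3 in COX2i (25.6 to 37.9) and 108 in COX2i + 5-AZA (91.2 to 128). CTRL and IRF3/7, with 9 and 4 UMIs, did not differ beyond counting error, COX2i was 9.69-fold above CTRL (log2 ratio 3.28, 2.30 to 4.45), and COX2i + 5-AZA was 33.5-fold above CTRL (5.07, 4.10 to 6.22) and 3.46-fold above COX2i (1.79, 1.41 to 2.17). In COX2i 48 of the 105 UMIs lay in 1 cell, and without the top cell of each library the ratio of COX2i + 5-AZA to COX2i was 2.32 (1.85 to 2.81).

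Ccl17 was at 62.1 CPM in cDC2 of CTRL (53.2 to 72.1), 2.29 in IRF3/7 (0.472 to 6.69), 421 in COX2i (399 to 443) and 641 in COX2i + 5-AZA (599 to 686). IRF3/7 was the lowest and the celecoxib libraries the highest. The log2 ratio to CTRL was -4.76 in IRF3/7 (-7.05 to -3.19), 2.76 in COX2i (2.53 to 3.00) and 3.37 in COX2i + 5-AZA (3.13 to 3.61). A single cell held 710 of the 1410 UMIs of COX2i, and without the top cell of each library the ratio of COX2i to CTRL was 1.90 (1.65 to 2.16), and that of COX2i + 5-AZA to COX2i moved from 0.61 to 1.30 (1.14 to 1.45). The share of cDC2 with a Ccl17 UMI does not rest on such cells, and was 7.13% in CTRL, 0.256% in IRF3/7 (1 of 390 cells), 13.2% in COX2i and 22.2% in COX2i + 5-AZA.

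Of the other 4 genes, Relb was at 71.1 CPM in CTRL, 94.6 in IRF3/7, 72.5 in COX2i and 79.3 in COX2i + 5-AZA, and its log2 ratio to CTRL was 0.41 in IRF3/7 (0.08 to 0.74) and nearer to 0 in the others. Il4i1 was at 5.75, 11.4, 3.58 and 11.4 CPM from 12 to 16 UMIs per library, Fscn1 at 3.23, 0, 4.77 and 2.29 CPM, and Cacnb3 at 1.44, 3.81, 0.597 and 3.81 CPM. No Fscn1 UMI was seen in 390 cDC2 of IRF3/7, where 3 counts would be 2.29 CPM. With the exception of Il4i1 between COX2i + 5-AZA and COX2i (3.19-fold, log2 ratio 1.68, 0.48 to 2.90), none of these 4 genes reached 2-fold in a comparison for which it had 20 UMIs. In COX2i + 5-AZA 13 of the 15 Il4i1 UMIs lay in 4 cells, whereas in COX2i each of the 12 lay in a different cell. This Il4i1 ratio therefore rests on few cells.

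By count, 1 of 4 genes with at least 20 UMIs was at least 2-fold higher in cDC2 of IRF3/7 than of CTRL (Ccr7) and 1 lower (Ccl17), where 6.01% of all genes were higher and 17.5% lower. In COX2i 3 of 6 were higher and none lower (all genes: 3.52% higher, 1.43% lower), and in COX2i + 5-AZA 3 of 5 were higher and none lower (4.40% higher, 7.07% lower). Between COX2i + 5-AZA and COX2i 2 of 5 were higher, Ccl22 and Il4i1, and none lower (3.44% higher, 7.95% lower). The median log2 ratio of the counted genes was 0.70, 1.42, 2.24 and 0.61 in these 4 comparisons, beside -0.29, 0.00, -0.14 and -0.11 over all genes.

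**Figure D4:**
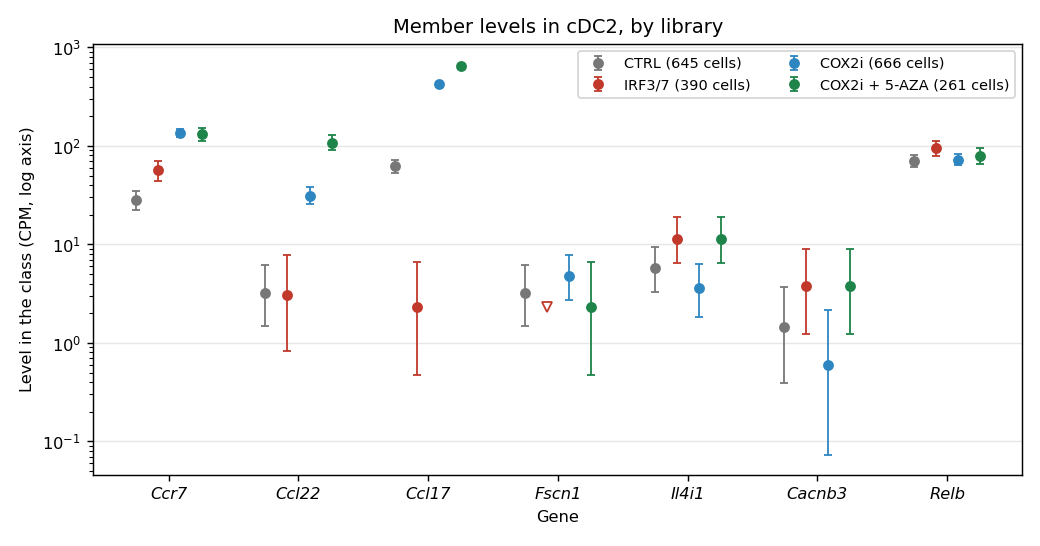
Level of each of the 7 genes in cDC2, in CPM on a log axis, with 1 point per library and bars for the exact Poisson 95% interval (counting error only). The open triangle marks Fscn1 in IRF3/7, which had no UMI, at the level of 3 counts (2.29 CPM). Ccr7, Ccl22 and Ccl17 are higher in both celecoxib libraries than in CTRL, and Ccl17 in IRF3/7 (2.29 CPM) is lower.

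The cDC2 class itself differed between libraries in its markers. Its 8 markers summed to 6005 CPM in CTRL, 3760.1 in IRF3/7, 6839 in COX2i and 5694 in COX2i + 5-AZA. The 8 markers of cDC1 summed to 502, 1212, 934 and 2131 CPM in cDC2 with none at 0. Of these Naaa was at 210.1, 558, 504 and 1369.9 CPM, and Clec9a, which defines cDC1, at 5.75, 21.4, 13.7 and 53.4 CPM. Cd209a, a C-type lectin used to define cDC2, was at 334 CPM in CTRL, 83.9 in IRF3/7, 581 in COX2i and 151 in COX2i + 5-AZA, and Mgl2 at 875, 75.5, 1543 and 1104 CPM. Both were lowest in IRF3/7. The 6 monocyte markers summed to 1072, 7314, 1219 and 2608 CPM with none at 0, and the 9 marker genes of CCR7+ DC to 1639, 2249, 1904 and 2228 CPM. The 8 macrophage markers summed to 2453, 988, 2377 and 2282 CPM, lowest in IRF3/7, and both Langerhans cell markers (Cd207 and Epcam) to 5.75, 4.58, 14.6 and 24.4 CPM, with none at 0. Their part in the levels of the 7 genes was not tested. When CCR7+ DC, cDC1 and cDC2 were summed as 1 class, the log2 ratio of Ccr7 to CTRL was 2.79 in IRF3/7, 1.63 in COX2i and 3.52 in COX2i + 5-AZA.

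The cDC2 with a Ccr7 UMI were compared with those without. They were 24 cells in CTRL, 20 in IRF3/7, 53 in COX2i and 29 in COX2i + 5-AZA. Relb was at 135 CPM in cells with Ccr7 and 67.9 in cells without in CTRL (log2 ratio 1.00, 0.21 to 1.7), at 207 and 87.0 in IRF3/7 (1.25, 0.42 to 2.00), at 182 and 61.0 in COX2i (1.58, 1.13 to 2.01), and at 120.3 and 73.3 in COX2i + 5-AZA (0.71, -0.07 to 1.43). The ratio was above 0 in 4 of 4 libraries, and its interval included 0 in COX2i + 5-AZA. At equal depth the direction was not the same in all libraries: with cells thinned to 1000 UMIs, Relb was found in 4.17% of cells with Ccr7 and 7.25% of those without in CTRL, against 25.0% and 8.11% in IRF3/7, 15.1% and 7.67% in COX2i and 10.3% and 7.79% in COX2i + 5-AZA. Ccl22 was at 211 CPM in cells with Ccr7 and 12.5 in cells without in COX2i (4.07, 3.48 to 4.69) and at 307 and 79.4 in COX2i + 5-AZA (1.95, 1.43 to 2.46). In COX2i 1 cell held 48 of the 67 Ccl22 UMIs of cells with Ccr7, so that level is largely that of a single cell. After thinning Ccl22 was found in 3.77% of cells with Ccr7 and 1.31% without in COX2i, but in 3.45% and 4.33% in COX2i + 5-AZA. Ccl17 did not follow Ccr7 in this way: it was higher in cells with Ccr7 in CTRL (203 and 55.1 CPM) and in COX2i + 5-AZA (1131 and 570.0), and lower in COX2i (179 and 446), where the cell with 710 UMIs had no Ccr7. Cells with a Ccr7 UMI had more UMIs in all, with medians of 5275.5 against 4105.0 in CTRL, 3554.5 against 3097.5 in IRF3/7, 5681.0 against 4480.0 in COX2i and 5493.0 against 4701.5 in COX2i + 5-AZA.

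In cDC1, the class that cross-presents antigen to CD8+ T cells, few UMIs of the 7 genes were found. Ccr7 had 0, 3, 4 and 9 UMIs in CTRL, IRF3/7, COX2i and COX2i + 5-AZA, and each nonzero library had them in 1 or 2 cells. Ccl22 was at 0 of 16 cells in CTRL, 5.10 CPM in IRF3/7, 17.5 in COX2i (8.73 to 31.3) and 48.6 in COX2i + 5-AZA (30.5 to 73.6). Ccl17 had 1 UMI in CTRL and 0 in IRF3/7. It was at 137 CPM in COX2i (109 to 169), from 86 UMIs of which 37 lay in 1 cell, and at 17.7 CPM in COX2i + 5-AZA. Cacnb3 was at 77.4 CPM in CTRL (33.4 to 153), 81.6 in IRF3/7 (46.7 to 133), 9.53 in COX2i (3.50 to 20.8) and 13.3 in COX2i + 5-AZA (4.87 to 28.9), so both libraries without celecoxib stood above both with it, on 6 to 16 UMIs each. Relb was at 38.7, 61.2, 58.8 and 44.2 CPM with overlapping intervals. In the same order, the 8 cDC2 markers summed to 2399.7, 699, 1554 and 880.0 CPM in cDC1. The 8 macrophage markers summed to 2719, 832, 2264 and 1132 CPM, and the 6 monocyte markers to 1064, 6285, 1314 and 1981 CPM. Some cDC2 and monocyte markers were at 0. The part of these cells in the levels of the 7 genes was not tested.

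Monocytes carried Relb and little else of the 7 genes. Relb was at 37.5 CPM in CTRL (24.5 to 55.0), 63.6 in IRF3/7 (59.6 to 67.7), 47.1 in COX2i (38.8 to 56.8) and 54.4 in COX2i + 5-AZA (51.6 to 57.3), and IRF3/7 was 1.69-fold above CTRL (log2 ratio 0.76, 0.20 to 1.38). With thinned cells that ratio was 0.04 (-0.91 to 1.18), so the difference was not detectable at equal depth. The 8 macrophage markers summed to 40618 CPM in monocytes of CTRL, against 10240.1, 11121 and 9897 in IRF3/7, COX2i and COX2i + 5-AZA, and the 6 monocyte markers to 5704, 16152, 6359 and 6715 CPM, with none of either list at 0, and their part in the Relb levels was not tested. The class also held different clusters: Infl_Mono cells were 4335 of 4596 monocytes in IRF3/7 and 93 of 139 in CTRL, while Monocyte_1 cells were 394 of 558 in COX2i and 3640 of 4684 in COX2i + 5-AZA. Within Infl_Mono, Relb was at 31.0, 63.3, 32.7 and 58.9 CPM in CTRL, IRF3/7, COX2i and COX2i + 5-AZA (ratio of IRF3/7 to CTRL 1.03, 0.30 to 1.87), and within Monocyte_1 at 48.9, 70.6, 48.5 and 52.6 CPM (0.53, -0.46 to 1.68). None of the other 6 genes exceeded 7.22 CPM. Ccl17 had no UMI in 4596 monocytes of IRF3/7, where 3 counts would be 0.194 CPM, and was at 7.22 CPM in COX2i and 6.13 in COX2i + 5-AZA. Its UMIs lay in 4 cells of COX2i and 43 of COX2i + 5-AZA. In those cells the 4 markers common to dendritic cells (Flt3, Zbtb46, Itgax and H2-Ab1) summed to 10059 and 7964 CPM, against 5143 and 5286 CPM in monocytes without Ccl17. The part of mislabelled or joined cells in these levels was not tested. Ccr7 in COX2i + 5-AZA was at 5.04 CPM, from 129 UMIs of which 42 lay in 1 of 4684 cells. None of 4 genes with at least 20 UMIs was 2-fold higher in IRF3/7 than in CTRL (5.00% of all genes were), and none of 1 in COX2i (3.88%) or of 7 in COX2i + 5-AZA (4.38%), although the 139 monocytes of CTRL allow no more than a bound for genes at 0 there. Between COX2i + 5-AZA and COX2i 2 of 7 were higher (3.18%), Ccr7 at a log2 ratio of 2.57 (0.69 to 5.63) and Il4i1 at 1.37 (-1.23 to 6.72), each set against 2 UMIs or fewer in COX2i. With thinned cells the Il4i1 ratio was -1.48 (-5.12 to 4.23), and Ccr7 alone passed 2-fold there and under 5 other alternatives.

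Macrophages, the main class of CTRL and COX2i, had Relb at 32.9, 55.3, 29.4 and 34.2 CPM in CTRL, IRF3/7, COX2i and COX2i + 5-AZA. IRF3/7 was again the highest, 1.68-fold above CTRL (log2 ratio 0.75, 0.48 to 1.00). In macrophages of CTRL and IRF3/7 the 4 markers common to dendritic cells summed to 746 and 3434 CPM, and the 8 cDC1 markers to 380.0 and 907 CPM. The 6 monocyte markers summed to 942 and 2742 CPM, while the 8 macrophage markers summed to 46787 and 36576 CPM. Their part in the Relb and Il4i1 levels was not tested. The class held different clusters in these libraries: 385 of 439 macrophages in IRF3/7 were TAM_H2Ab1, against 19 of 7475 in CTRL, where TAM_C1q (3199 cells) and TAM_Spp1 (2347 cells) were the most frequent. Within TAM_H2Ab1, Relb was at 56.8 CPM in IRF3/7 and 33.5 in CTRL, from 4 UMIs (log2 ratio 0.76, -0.63 to 2.66), so a difference within 1 cluster was not detectable, and Fscn1 and Il4i1 had 1 and 0 UMIs in those 19 cells. Fscn1 was at 8.75 CPM in CTRL, 2.49 in IRF3/7, 9.50 in COX2i and 3.97 in COX2i + 5-AZA. It was 3.51-fold lower in IRF3/7 (log2 ratio -1.81, -3.26 to -0.68) and 2.20-fold lower in COX2i + 5-AZA (-1.14, -1.40 to -0.88) than in CTRL. The latter ratio was -1.20 (-1.62 to -0.80) within TAM_C1q, -1.72 (-2.73 to -0.83) within TAM_Spp1 and -1.19 (-1.64 to -0.74) within TAM_cycling, while it was -0.48 (-3.09 to 4.87) within TAM_H2Ab1 and 0.11 (-3.05 to 2.20) within Ctsk_Macro, and Macro cells had 0 UMIs in CTRL and 2 in COX2i + 5-AZA. The 4 non-immune markers summed to 249, 39.9, 333 and 113 CPM in macrophages of CTRL, IRF3/7, COX2i and COX2i + 5-AZA, with none at 0, in the same order of libraries as Fscn1, and their part in it was not tested. Il4i1 was at 1.28, 12.1, 0.931 and 1.12 CPM, and the IRF3/7 value came from 29 UMIs in 7 cells, 13 of them in 1 cell. Its log2 ratio to CTRL was 3.24 (2.56 to 3.88), and 1.99 when each cell counted equally.

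The levels of the chemokines and Ccr7 in macrophages were higher in both celecoxib libraries than in CTRL, for Ccr7 in COX2i only before thinning. Ccl17 was at 1.32 CPM in CTRL (1.03 to 1.66), 10.0 in COX2i (9.25 to 10.9) and 8.62 in COX2i + 5-AZA (7.76 to 9.54), and no UMI was found in the 439 macrophages of IRF3/7, where 3 counts would be 1.25 CPM. Ccr7 was at 0.760, 1.25, 2.09 and 3.43 CPM and Ccl22 at 0.315, 0.831, 0.847 and 1.77 CPM in CTRL, IRF3/7, COX2i and COX2i + 5-AZA. The Ccl17 UMIs sat in 23, 68 and 42 cells of CTRL, COX2i and COX2i + 5-AZA, and 10 cells held 81.7%, 85.9% and 89.4% of them. In those cells the 4 markers common to dendritic cells (Flt3, Zbtb46, Itgax and H2-Ab1) summed to 6787, 6015 and 5169 CPM, against 719, 1115 and 2259 CPM in macrophages without Ccl17, and the 8 macrophage markers to 39016, 18227 and 19899.9 CPM, against 46821, 26653 and 27885 CPM. The part of mislabelled or joined cells in these levels was not tested.

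By count in macrophages, 1 of 6 genes was at least 2-fold higher in IRF3/7 than in CTRL (Il4i1) and 1 lower (Fscn1), where 7.22% of all genes were higher and 15.3% lower. In COX2i 3 of 7 were higher (Ccr7, Ccl22 and Ccl17; 1.85% of all genes), and Ccl17 alone when each cell counted equally or at 3-fold. In COX2i + 5-AZA 3 of 7 were higher, again Ccr7, Ccl22 and Ccl17, and 1 lower, Fscn1 (4.25% higher, 8.89% lower). Between COX2i + 5-AZA and COX2i 1 was higher, Ccl22, and 1 lower, Fscn1 (4.89% higher, 5.92% lower). With cells thinned to 1000 UMIs the Ccr7 ratio of COX2i to CTRL in macrophages was -0.45 (-1.95 to 0.96) in place of 1.46 (0.94 to 2.01), and the Fscn1 ratio of COX2i + 5-AZA to CTRL was -0.77 (-1.53 to -0.06), under 2-fold.

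Over all cells of a library Ccr7 was at 4.63 CPM in CTRL, 46.3 in IRF3/7, 16.7 in COX2i and 34.6 in COX2i + 5-AZA. These levels mix the number of cells of each class with the level inside the class. The shares are shares of UMIs and were exchanged for all classes at once. With the class levels of CTRL and the class shares of IRF3/7, Ccr7 came to 43.7 CPM, close to the IRF3/7 value, whereas with the class levels of IRF3/7 and the shares of CTRL it came to 5.56 CPM. For COX2i the same pair was 8.04 CPM (shares alone) and 12.3 CPM (levels alone), and for COX2i + 5-AZA it was 25.5 and 12.7 CPM. Ccl22 over all cells was at 1.89, 4.33, 5.26 and 24.4 CPM, and in IRF3/7 the shares alone would have given 18.3 CPM and the levels alone 1.20 CPM. Ccl17 was at 4.61, 0.190, 28.9 and 28.3 CPM, and in IRF3/7 the shares alone would have given 14.0 CPM and the levels alone 0.100 CPM. Thus in these sums the higher Ccr7 of IRF3/7 moved with the class shares, and its low Ccl17 with the levels inside classes. The part of the CCR7+ DC share alone was not tested. Some classes that are large in CTRL hold few IRF3/7 cells, so the values with CTRL shares rest on small counts. The values with CTRL levels rest on small counts too, among them 11 NK cells and 10 CCR7+ DC. In these CCR7+ DC 1 cell held 53 of the 60 Ccl17 UMIs. CTRL had no T_CD8 cells, and the level of that class was taken from the other library.

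Other genes of the pathway were followed from lists. Of the 14 genes of the CCR7 and CCR4 axis and of dendritic cell chemokines, 10 were in the table, and Ccl19, Ccl21a, Ackr4 and Ccr4 were not analysed here. In cDC2, Ccl5, a chemokine that draws T cells, was at 15.4 CPM in CTRL, 526 in IRF3/7, 23.3 in COX2i and 183 in COX2i + 5-AZA (log2 ratio to CTRL 5.09, 0.59 and 3.57). The 6 NK cell markers in cDC2 summed to 2.87 CPM in CTRL (Ncr1, Klrb1c, Gzma and Nkg7 at 0), 48.1 in IRF3/7 (none at 0), 2.09 in COX2i (Ncr1 and Nkg7 at 0) and 17.5 in COX2i + 5-AZA (Ncr1 and Klrb1c at 0), and the libraries held 11, 568, 50 and 437 NK cells. Their part in the Ccl5 level was not tested. Ccr2, the receptor that draws monocytes and their kin into tissue, was at 732, 309, 602 and 228 CPM, 2-fold or more lower in IRF3/7 (-1.25, -1.40 to -1.09) and COX2i + 5-AZA (-1.68, -1.86 to -1.51). Cx3cl1 was at 4.31, 0.763, 11.9 and 23.6 CPM, with 12 UMIs in CTRL and 1 in IRF3/7, whose ratio had an interval that included 0 (-2.50, -7.92 to 0.26). Of the 9 or 10 list genes with 20 UMIs, 1 was higher and 1 lower by 2-fold in IRF3/7, 1 and 1 in COX2i, and 2 and 2 in COX2i + 5-AZA. Over all genes the shares higher and lower were 6.01% and 17.5%, 3.52% and 1.43%, and 4.40% and 7.07%, so counts this small do not set the list apart.

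In cDC2, 7 of the 17 genes of dendritic cell maturation and regulation with 20 UMIs were at least 2-fold higher and 1 lower in IRF3/7 than in CTRL, 3 higher and 1 lower in COX2i, and 6 higher and none lower in COX2i + 5-AZA, and between COX2i + 5-AZA and COX2i 7 were higher and none lower. The shares of all genes that were higher were 6.01%, 3.52%, 4.40% and 3.44%. The median log2 ratio of the list was 0.55, 0.26, 0.64 and 0.39, beside -0.29, 0.00, -0.14 and -0.11 over all genes. Socs1, an inhibitor of cytokine receptor signalling, was at 28.0 CPM in CTRL, 227 in IRF3/7, 87.7 in COX2i and 245 in COX2i + 5-AZA. Cd274, which encodes PD-L1, was at 77.6, 498, 138 and 377 CPM, and Pdcd1lg2, which encodes PD-L2, at 17.2, 55.7, 38.2 and 226 CPM. Tnfrsf9, which encodes the costimulatory receptor 4-1BB, was lower in IRF3/7 (13.7 against 33.8 CPM, log2 ratio -1.30, -2.11 to -0.56) and higher in COX2i + 5-AZA (143 CPM, 2.08, 1.71 to 2.45). Of 19 NF-κB genes, 3 were higher in IRF3/7 (Traf1, Bcl3 and Cd40), 1 in COX2i (Cd40), 2 in COX2i + 5-AZA (Chuk and Cd40) and none between COX2i + 5-AZA and COX2i, and none was lower in any of the 4. Cd40, the receptor through which helper T cells license dendritic cells, was at 36.3, 399, 91.3 and 168 CPM. Of 13 genes of cytoskeleton and motility, Icam1, an adhesion molecule, was the one higher gene in each comparison, at 21.5, 74.0, 79.4 and 170.0 CPM, and Arhgap31 was lower in IRF3/7. Of the 7 relatives of Il4i1 and Cacnb3, 1 had 20 UMIs in cDC2, Ahr, the receptor for tryptophan metabolites, which was lower in IRF3/7 (109 against 291 CPM, -1.42, -1.68 to -1.16).

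In CCR7+ DC of IRF3/7 against COX2i + 5-AZA, 2 of 20 genes of the maturation list with 20 UMIs were higher and 2 lower, none of 19 NF-κB genes was higher and 1 was lower, and none of 13 genes of cytoskeleton and motility passed 2-fold, where 5.98% of all genes were higher and 12.0% lower. Between these libraries Ccl5 (13841 against 4441 CPM, log2 ratio 1.64, 1.55 to 1.73), Il12b (500.1 against 211 CPM, 1.24) and Il15 (81.8 against 32.3 CPM, 1.34) were higher in IRF3/7. Cx3cl1, Tnfrsf4, Tnfrsf9, Chuk and Ahr were lower, Tnfrsf9 at 356 against 1114 CPM (-1.65, -2.02 to -1.29). Il12b, which encodes the shared subunit of IL-12 and IL-23, was at 682 CPM in CTRL, 742 in COX2i and 211 in COX2i + 5-AZA, 2-fold or more lower there than in both (-1.69, -2.31 to -1.04 and -1.81, -2.27 to -1.36). Ccl5 was lower in COX2i + 5-AZA than in CTRL (10393 CPM there, -1.23, -1.38 to -1.08). Thus between IRF3/7 and COX2i + 5-AZA the class levels of 2 chemokines ran in opposite orders: Ccl5 high where Ccl22 was low. In CTRL, Ccl5 was at 10393 CPM with Ccl22 at 2297 CPM, and the 2 genes were not followed within single cells.

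Finally, genes with a pattern like that of the 7 were sought over 51 combinations of class and library with at least 20 cells, by Pearson's r between log2(CPM + 10) of the gene and the mean of the 7. The points share libraries and depth, and r is a description. Among 11474 genes with at least 200 UMIs in all, the closest were Nudt17 (0.944), Il12b (0.920), Tbc1d4 (0.917), Strip2 (0.915), H2-Eb2 (0.910), Npr1 (0.910), Mab21l3 (0.899), Trim7 (0.894), Mreg (0.890) and Tmtc2 (0.888). The members themselves, which enter the mean, had values from 0.715 for Ccl17 and 0.840 for Fscn1 to 0.963 for Ccl22. Nudt17 was at 114, 72.1, 190.1 and 206 CPM in CCR7+ DC of CTRL, IRF3/7, COX2i and COX2i + 5-AZA. Mreg, which encodes melanoregulin, was at 659.5, 793, 579 and 639 CPM, within 2-fold in all 4.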

How the data were processed

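Single cells of 4 libraries, 1 per group, were measured with a fixed-RNA probe assay (Chromium Flex) after 22 h of fixation. The deposited table holds raw UMI counts per gene and cell, which the authors made with Cell Ranger 7.1.0 on the mm10 mouse reference (both per the labels), together with the cell classes that they named from clusters with known markers and reference data. The authors state that cells with over 1000 genes were kept and that ribosomal and mitochondrial genes were removed, and the deposited table holds 1201 cells at or under 1000 detected genes. The counts of all 34447 cells summed to the totals that the authors gave for each cell, and 0 columns were left out. How doublets were treated is not given in the sources used here, and none were removed.

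UMIs were summed over the cells of a class in each library and divided by all UMIs of those cells (CPM). Monocytes are the classes Infl_Mono, Monocyte_1 and Monocyte_3, and macrophages are TAM_C1q, TAM_Spp1, TAM_cycling, TAM_H2Ab1, Ctsk_Macro and Macro. Intervals at 95% are exact Poisson for a level, exact Clopper-Pearson for a share and exact conditional binomial for a ratio. With 1 library per group no test was made. Where 1 library had no UMI, a bound was taken from 3 counts per library. Differences of at least 2-fold were counted only for genes that reached 20 UMIs when the pair of libraries was summed. Cells were thinned to 1000 UMIs, and the 10 cells under that depth were left out. The genes named are the 7 members, the genes of the pathway and marker lists, and the 10 genes with the closest pattern. The values of 1 gene of the lists are not reported here. The members and lists were chosen with earlier results of these data known. The calculations were tested on simulated data and used Python 3.11.15, numpy 2.4.6, scipy 1.17.1, pandas 2.3.3 and matplotlib 3.10.9.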

Additional observations from a re-analysis of the deposited data

Results flagged for a closer look

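Outside the classes described above, Ccl17 was found in cells of the class Myofibrobl above its level in CTRL. It had 17 UMIs in COX2i (1.45 CPM) and 3 in CTRL (0.311 CPM), a log2 ratio of 2.22 (0.43 to 4.64), and the difference has no replicate.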

How the results depend on the processing

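No paired analysis was possible because each group is 1 library. Of 116 values of the main results under the alternatives 88 stayed near the reported value and 28 moved, and no ratio of at least 2-fold changed direction. Of 555 values for single genes 442 stayed and 111 moved, and 2 of ratios of at least 2-fold changed direction, both with thinned cells, namely Il4i1 in monocytes of COX2i + 5-AZA against COX2i (-1.48) and Ccr7 in macrophages of COX2i against CTRL (-0.45). Counting ratios of any size, the sign differed from the reported one in 58 of 583 values and, for IRF3/7 against COX2i + 5-AZA, in 13 of 165. The cause of these moves was not tested. With CCR7+ DC, cDC1 and cDC2 pooled in place of cDC2, the log2 ratio of Ccr7 was 2.79 in IRF3/7, 1.63 in COX2i and 3.52 in COX2i + 5-AZA against CTRL and 1.89 between COX2i + 5-AZA and COX2i, and the number of genes at least 2-fold higher was 5 in IRF3/7 and 7 in COX2i + 5-AZA against CTRL and 6 between COX2i + 5-AZA and COX2i. For Ccr7 in cDC2 of COX2i + 5-AZA the ratio to CTRL was 1.71 with thinned cells and 2.69 without the cells above the percentile 95 of UMIs, and the ratio to COX2i was -0.32 without the top cell. The number of genes at least 2-fold higher in cDC2 of IRF3/7 than of CTRL (1) was 2 with size factors (Ccr7 and Il4i1), 0 with thinned cells and 0 at 3-fold. In monocytes the number in IRF3/7 against CTRL (0) was 1 (Relb) with size factors and 1 with cells of over 2000 genes, that in COX2i + 5-AZA against CTRL (0) was 1 with cells of over 2000 genes, and that of COX2i + 5-AZA against COX2i (2) was 1 when cells counted equally, with thinned cells, with cells of over 2000 genes, without cells of very high UMIs, without the top cell and at 3-fold. In macrophages the number in IRF3/7 against CTRL (1) was 2 with cells of over 2000 genes, that in COX2i against CTRL (3) was 1 when cells counted equally and 1 at 3-fold, and that of COX2i + 5-AZA against COX2i (1) was 2 when cells counted equally, 2 without cells of very high UMIs and 0 at 3-fold. The comparison of IRF3/7 with COX2i + 5-AZA, the rule that a bound on the wrong side of 0 is no call, the levels of CTRL without the top cell and the values within single monocyte and macrophage clusters were chosen after seeing the data. Depth limits CCR7+ DC, where 3 counts are 68.2 CPM in the 10 cells of CTRL and 7.46 CPM in the 87 cells of COX2i + 5-AZA.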
